A study of Mus musculus with 4 samples.

Results

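Mdm2 and Mdm4 are paralogous genes whose products hold p53 in check, and both mRNAs carried peaks of the RNA acetyltransferase NAT10 in mouse 32D cells. The members are all rows of the deposited peak list whose gene is Mdm2 or Mdm4. They come to 33 of 4172 distinct peaks, with 11 under Mdm2 and 22 under Mdm4. The gene pair was chosen by its listed values, a short dense stretch of strong peaks in Mdm2 and many scattered peaks in Mdm4. Those positions and folds are therefore given as a description, with no test.

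The assay was eCLIP, in which ultraviolet light joins proteins to bound RNA, 1 protein is collected with an antibody, and the RNA pieces still joined to it are sequenced. Both groups came from wild-type 32D cells, a mouse bone marrow line that depends on interleukin-3 and was grown with 10 ng/mL of it. The cells were crosslinked with 150 mJ at 254 nm. The immunoprecipitate (IP) group held 2 libraries made with a NAT10 antibody, and the input group held 2 libraries. Every library is of this 1 cell line in 1 condition, so the measurement is IP against input. The labels leave unsaid if replicate libraries are from different cultures, and no library without NAT10 or with a control antibody was analysed here.

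MDM2 is a ubiquitin ligase that binds the transactivation domain of p53 and marks it for destruction by the proteasome. MDM4, also called MDMX, lacks a strong ligase activity of its own, binds the same part of p53, and joins MDM2 through the RING domains of both proteins. Mdm2 is also a transcriptional target of p53, which closes a feedback loop, and loss of either gene in the mouse embryo is lethal unless p53 is lost too. NAT10 writes N4-acetylcytidine, a modification found in ribosomal RNA, transfer RNA and mRNA. In mRNA this modification has been tied to stability and translation. A NAT10 peak records contact with the protein and does not show that a cytidine there is acetylated.

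For each peak the list gives the log2 fold of IP over input and the -log10 p, which are the authors' own. Both values of a peak could be traced back to whole read numbers. The listed fold matched the mean of 2 log2 folds, 1 for each pair of an IP and an input library, and the listed p matched the weaker of the 2 pairs. This held for 4134 of the 4138 peaks whose -log10 p lay below the column's ceiling of 400, and for all 33 members, with a relative error in p of at most 6.7e-07. The library totals implied in this way were about 2209000 reads of IP and 4102000 reads of input for 1 pair, called pair 1 here. They were about 2563000 and 4181000 for pair 2. Which pair the labels number first cannot be told. In the pair with the weaker p the reads are fixed for 3770 of the 4134 peaks. Among the members they are fixed except for 1 Mdm2 peak with 2 possible readings. Where several readings fit, the one with the fewest reads is used, also in values for the whole list. In the other pair only the ratio of IP to input is fixed, and the smallest whole numbers that fit are given. Pair 1 had the weaker p in all 11 Mdm2 pieces and in 15 of the 22 Mdm4 peaks. Every pair 2 read number of Mdm2 is therefore its ratio with the input taken as 1 read. Only input numbers of 1 or more were tried, so the lowest number found, 1, was set by the search. An input of 1 may stand for no read at all, which these values cannot tell. A fold that rests on it may then be a lower bound.

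All 11 Mdm2 peaks (ENSMUSG00000020184) lay in the 3' UTR, on the minus strand of chromosome 10 in GRCm39, from 117525185 to 117525659. They spanned 475 nt and covered 474 of them, or 99.8%. The only uncovered base separated a 5' block of 304 nt, made of 6 touching pieces, from a 3' block of 170 nt, made of 5. The pieces were 10 to 135 nt wide, with a median of 32 nt. The list therefore holds this stretch as 1 nearly unbroken footprint cut into pieces. A read longer than a piece can be counted in several of them, so the pieces are not independent sites and their reads were not summed.

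Read 5' to 3' along the mRNA, the log2 folds of the Mdm2 pieces rose to a single summit and then settled on a shelf. Reads were counted per piece and not scaled to its width, and the summit piece was also the widest, at 135 nt. How far this shape depends on where the list cut the footprint was not tested. The first piece, chr10:117525630-117525659, had a log2 fold of 7.50, from 92 IP reads against 1 input read in pair 1 and 117 against 1 in pair 2. The next, chr10:117525577-117525629, had 8.28, with 161 IP reads in pair 1 and 197 in pair 2. The piece at chr10:117525533-117525576 had 8.97, with 257 and 323 IP reads. Each of these 3 pieces touched the next, and in both pairs each held more IP reads than the piece before it.

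The summit was the 135-nt piece at chr10:117525398-117525532. Its log2 fold was 10.41 and its -log10 p 319, from 706 IP reads in pair 1 and 862 in pair 2, each against 1 input read. Scaled to 1000000 IP reads per library (RPM), this was 320 in pair 1 and 336 in pair 2. No other peak with read numbers had more IP reads in both pairs, although the 34 peaks at the ceiling have none to compare and pair 2 numbers are the smallest that fit. By fold it stood 5th in the list. The 95% interval of its log2 fold ran from 7.87 to 15.66 in pair 1 and from 7.98 to 15.76 in pair 2. Intervals here are exact ones for a ratio of 2 read numbers, taken as given. They cover counting error only, and they are wide because the input number is 1. In the pair without the weaker p only the ratio is fixed. The interval there holds for the smallest numbers that fit, and larger numbers of the same ratio would narrow it.

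Downstream of the summit the folds fell and then stayed high. The 32-nt piece at chr10:117525366-117525397 had a log2 fold of 9.52, from 399 and 446 IP reads. The 10-nt piece at chr10:117525356-117525365, the narrowest of the gene, had 9.04, from 283 and 323. Across the 1-nt gap, chr10:117525338-117525354 had 9.21, from 316 and 364. The pieces on either side of the uncovered base thus stood at nearly the same level. The list gives no reads for that base itself.

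The last 4 pieces formed the 3' end of the shelf. The piece at chr10:117525319-117525337 had a log2 fold of 9.11, from 290 and 347 IP reads, and chr10:117525267-117525318 had 8.98, from 267 and 317. The piece at chr10:117525248-117525266 had 8.60, from 205 and 244, and the most 3' piece, chr10:117525185-117525247, had 8.81, from 234 and 286. By piece, with reads not scaled to width, the profile was lopsided. Measured from the centre of the summit piece, the first piece, centred at -179.5 nt, held 92 and 117 IP reads, whereas the last, centred at 249 nt, held 234 and 286.

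**Figure D1:**
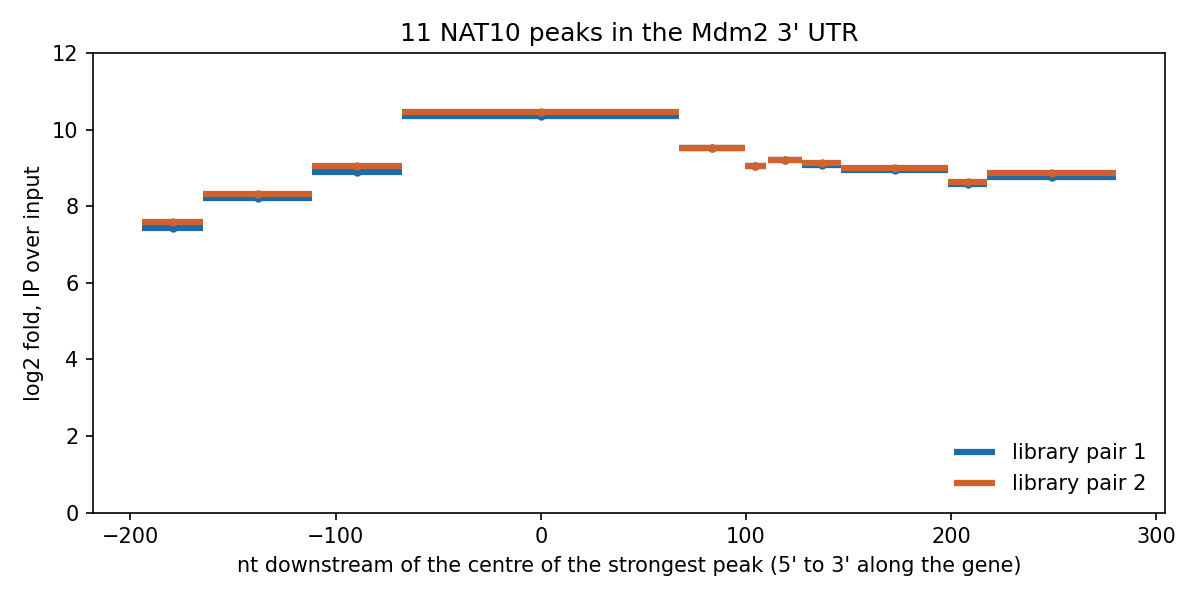
Log2 fold of IP over input (vertical axis) for the 11 Mdm2 pieces by distance in nt from the centre of the strongest piece (horizontal axis, 5' to 3'), with bars as wide as the pieces and 1 colour for each library pair. Both pairs rise from 7.42 and 7.58 at the 5' end to 10.36 and 10.46 at the summit, then stay between 8.57 and 9.53 downstream.

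The 2 library pairs gave the same shape. Their log2 folds differed by -0.03 to 0.16 over the 11 pieces (pair 2 minus pair 1, median 0.07), and pair 2 was the higher in 10. The medians over the pieces were 8.95 in pair 1 and 9.04 in pair 2. Over the 112 peaks of the list with 1 input read in both pairs and at least 90 IP reads in each, the SD of this difference was 0.118. The rank correlation of IP reads between pairs over the 11 pieces was 0.98 (Spearman), with pair 2 reads as taken from the ratio. The points share reads with their neighbours, so no p is given. With the read numbers as given, all 11 pieces had 1 input read in both pairs, which 70.8% of the peaks with read numbers also had. In pair 1 the input of 1 is fixed by the p, except in the piece at chr10:117525577-117525629, which has 2 possible readings. Among the pieces where it is fixed, every difference in pair 1 fold is a difference in IP reads. The reads did not follow the width of the pieces, with a rank correlation of -0.05 in pair 1 and -0.03 in pair 2.

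Mdm4 (ENSMUSG00000054387, minus strand of chromosome 1) had its 22 peaks spread over 31518 nt, from 132914306 to 132945823. Of these, 17 were in the 3' UTR and 5 in other exons. The peaks covered 1777 nt, or 5.64% of the span, in 14 separate regions when touching peaks were joined. The median log2 fold was 5.54, with a range of 3.23 to 6.61, and the median -log10 p was 13.6. The span includes introns, so it is a distance along the gene and not along the mRNA. The 3' UTR peaks alone spanned 5369 nt, with 1404 nt or 26.2% covered in 10 regions. Whether that stretch is free of introns was not checked, because no GRCm39 annotation was used here.

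The 5 exon peaks formed 3 groups far apart. The most 5' peak of the gene, chr1:132945780-132945823, was the lowest in reads, with a log2 fold of 4.64 from 12 IP reads against 1 input read in pair 1 and 17 against 1 in pair 2. The next peak began 13978 nt away. Next came 3 pieces close together. The piece at chr1:132931712-132931801 had the lowest log2 fold of the gene, 3.23, from 37 against 7 and 44 against 8. The adjoining piece, chr1:132931645-132931711, had 5.87 from 33 against 1 and 34 against 1. These neighbours had similar IP reads and differed in input. The 95% intervals of the first were 2.11 to 4.71 in pair 1 and 2.06 to 4.46 in pair 2. With the read numbers as given, they overlapped those of the second, 3.36 to 11.28 and 3.22 to 11.14.

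A gap of 4 nt separated these from chr1:132931599-132931640, with a log2 fold of 5.41 from 23 against 1 and 26 against 1. The last exon peak, chr1:132928365-132928494, had 5.74 from 27 against 1 and 35 against 1. Leaving out the most 5' peak and the most 3' peak reduced the span of Mdm4 from 31518 to 17385 nt. Most of that drop is the 13978-nt gap behind the most 5' peak, which has 12 and 17 IP reads.

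The 3' UTR peaks began with 4 isolated ones. Their log2 folds were 5.08 at chr1:132919660-132919674, 5.35 at chr1:132918663-132918710, 5.25 at chr1:132916851-132916910 and 5.95 at chr1:132916589-132916649. Their IP reads were 19 to 34 in pair 1 and 19 to 37 in pair 2, all against 1 input read. Each stood 201 to 8690 nt from the peak before it.

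The longest unbroken region of Mdm4 was 371 nt, chr1:132915963-132916333, made of 5 touching pieces. From 5' to 3' their log2 folds were 6.28, 5.97, 5.80, 6.16 and 6.27. In the same order the IP reads were 39, 47, 40, 39 and 45 in pair 1, and 51, 55, 51, 43 and 44 in pair 2. By piece, with reads not scaled to width, the region was flat in IP reads and had no summit of the Mdm2 kind. The dip in the fold of the second and the third pieces lay in pair 1, where the input was 2 reads and not 1. Their pair 1 log2 folds were 5.45 and 5.21, against 6.49 and 6.38 in pair 2.

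The strongest Mdm4 peak lay further downstream, at chr1:132914826-132914976. Its log2 fold was 6.61 and its -log10 p 20.8, from 49 IP reads against 1 input read in pair 1 and 64 against 1 in pair 2. It stood 322nd by fold in the list, and its 95% interval ran from 3.96 to 11.84 in pair 1 and from 4.18 to 12.03 in pair 2. The adjoining piece chr1:132914734-132914825 had 6.08, from 35 against 1 and 43 against 1.

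The other 6 peaks of the 3' UTR had log2 folds of 4.73 to 5.56, and each had more than 1 input read in at least 1 pair. Between the 371-nt region and the strongest peak lay chr1:132915372-132915469 at a log2 fold of 5.56, chr1:132915330-132915371 at 4.88, chr1:132915233-132915312 at 5.52 and chr1:132914997-132915118 at 5.43. The first of these had the largest difference between pairs of any member, 6.51 in pair 1 from 49 against 1 and 4.61 in pair 2 from 45 against 3. At the 3' end, chr1:132914417-132914569 had 4.73, from 48 against 3 and 58 against 4, and chr1:132914306-132914416 had 5.16, from 33 against 2 and 51 against 2. The IP reads of the 4.73 peak were close to those of the strongest peak, so the 2 peaks differed in fold mainly through their input.

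**Figure D2:**
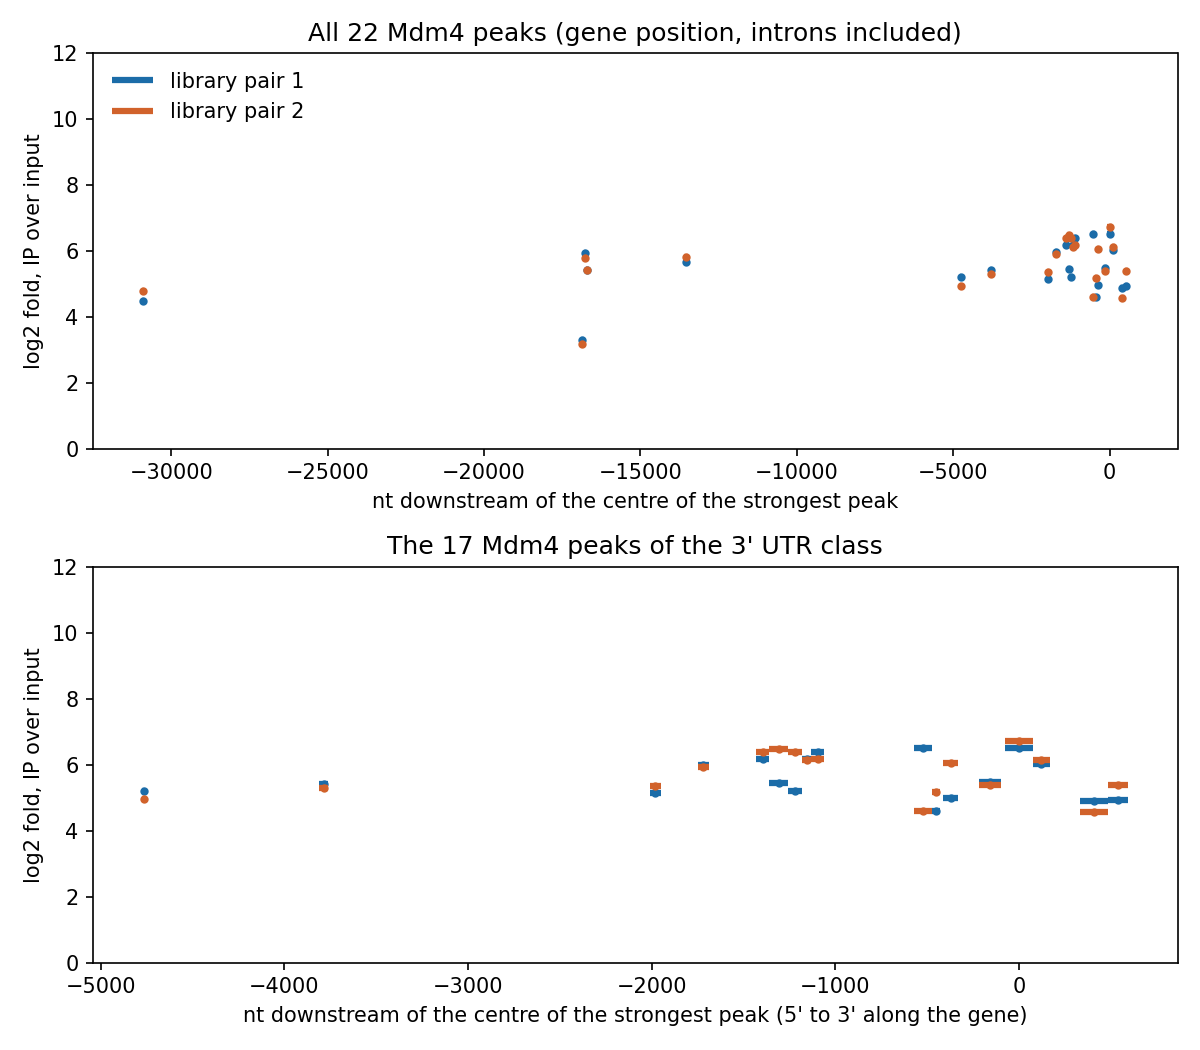
Log2 fold of IP over input (vertical axes) for the Mdm4 peaks by distance in nt from the centre of the strongest one (horizontal axes, 5' to 3'), 1 colour for each library pair. The upper panel shows all 22 peaks over 31518 nt with introns included, the lower panel the 17 peaks of the 3' UTR class over 5369 nt, where folds stay between 4.56 and 6.71.

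Across the 22 Mdm4 peaks the pairs differed by -1.90 to 1.16 in log2 fold (median 0.05), and pair 2 was the higher in 11. Of these peaks, 13 had 1 input read in both pairs, and among them the difference stayed between -0.26 and 0.32. Differences beyond that range all came from the 9 peaks with more input reads. Over all peaks with read numbers the SD of the difference was 0.401, and over those with 1 input read in both pairs it was 0.252. The median log2 fold was 5.43 over the 9 peaks with more input and 5.87 over the other 13, although their median IP reads were the higher ones, 40 against 33 in pair 1 and 51 against 35 in pair 2. Unlike in Mdm2, IP reads followed peak width, with a rank correlation over 22 peaks of 0.70 in pair 1 and 0.81 in pair 2. The points share a transcript, so no p is given.

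**Figure D3:**
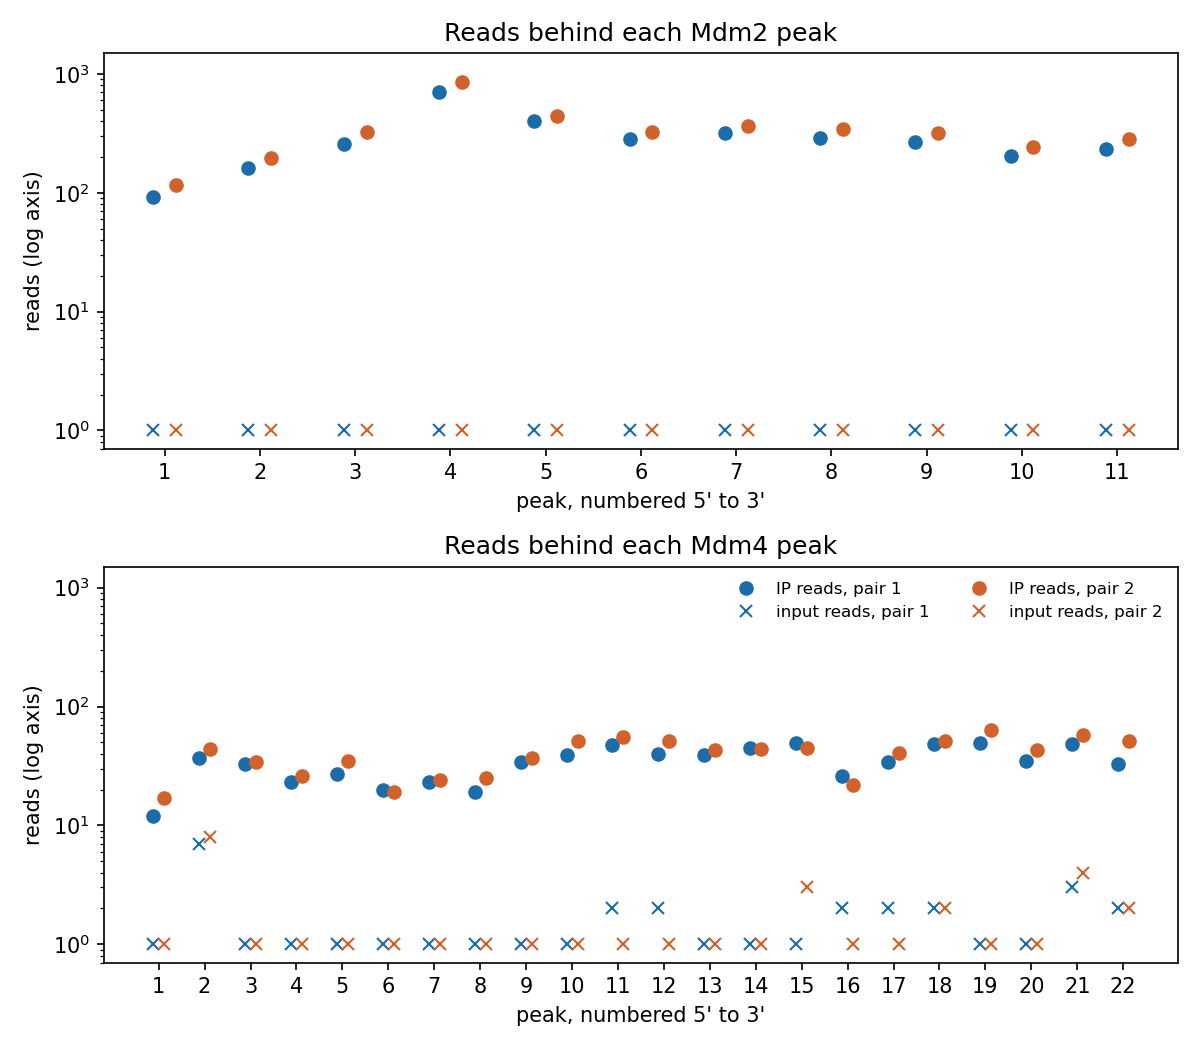
IP reads (circles) and input reads (crosses) on log axes for each Mdm2 peak (upper panel) and each Mdm4 peak (lower panel), numbered 5' to 3', with 1 colour for each library pair. With the read numbers as given, Mdm2 has 92 to 862 IP reads over an input of 1, whereas Mdm4 has 12 to 64 IP reads and inputs of 1 to 8.

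Side by side, the 2 genes did not overlap in fold or in IP reads in either pair. The lowest Mdm2 piece, at 7.50, stood above the highest Mdm4 peak, at 6.61. The medians differed by 3.44 on the log2 scale, or 10.9-fold. Each pair alone gave 3.52 and 3.44. In pair 1 the IP reads in RPM were 41.6 to 320 for Mdm2 (median 121) and 5.43 to 22.2 for Mdm4 (median 15.6), so the medians differed 7.76-fold. The Mdm2 numbers of pair 1 and those of 15 Mdm4 peaks are fixed by the p, with 1 Mdm2 piece open to 2 readings, and the other 7 Mdm4 numbers are the smallest that fit. In pair 2 the values were 45.6 to 336 (median 126) and 6.63 to 25.0 (median 16.8). For Mdm2 these restate the pair 2 ratio with an input of 1 and are no separate measure. The log2 fold also uses the input reads, which were above 1 in 9 Mdm4 peaks and, as given, in no Mdm2 piece. The level of either mRNA in the cells was not measured apart from these few input reads. Its part in the difference was not tested.

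A log2 fold of at least 6 was reached by 13.8% of all peaks, by all 11 Mdm2 pieces and by 5 of the 22 Mdm4 peaks. At 7 it was 5.35% of all peaks, 11 for Mdm2 and 0 for Mdm4. At 5 it was 33.3%, 11 and 18. The list's median log2 fold was 4.60, and 21 of the 22 Mdm4 peaks lay above it. Mdm4 was therefore well represented above the middle of the list and not near its top, whereas every Mdm2 piece was within the first 139 of 4172 by fold. The 3' UTR class held 57.6% of all peaks. It held 11 of 11 for Mdm2 and 17 of 22 for Mdm4. The 11 Mdm2 pieces form 1 nearly unbroken footprint and can share reads, so their counts here are not 11 separate cases. The 22 Mdm4 peaks likewise form 14 regions when touching peaks are joined.

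**Figure D4:**
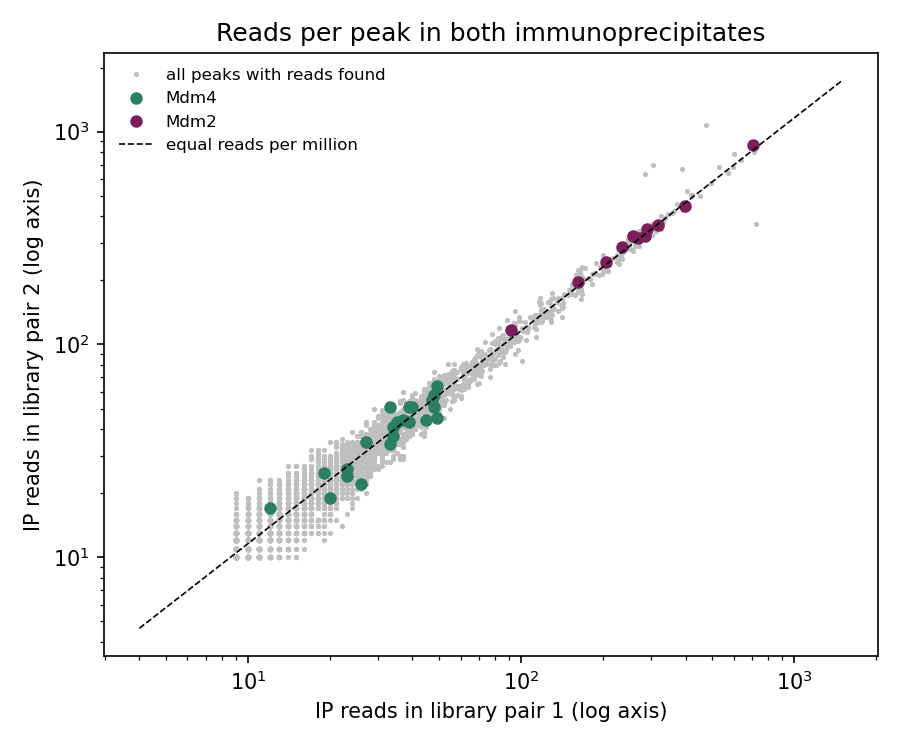
IP reads in library pair 2 (vertical, log axis) against pair 1 (horizontal, log axis) for the 4134 peaks with read numbers, Mdm2 and Mdm4 in colour and equal RPM as a dashed line. Mdm2 reaches the upper end of the cloud at 706 and 862 reads, and the Mdm4 peaks lie at 12 to 49 and 17 to 64.

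Among the 41 genes with at least 10 peaks, Mdm2 was the third most compact by span per peak, at 43.2 nt. Before it came Bin2, an adaptor of the BAR domain family, at 39.1 nt, and Actb, which encodes beta-actin, at 40.4 nt. After it came mt-Co1, a mitochondrial gene for a cytochrome c oxidase subunit, at 65.1 nt. The median of the 41 genes was 656 nt. By share of the span covered Mdm2 was first at 99.8%, with Bin2 nearly equal at 99.5%, against a median of 10.7%. By median fold and by strongest peak Mdm2 was second to Bin2. Of the 1626 genes with a peak, Bin2 was the only one with a stronger peak than Mdm2. These ranks use how the list cut each footprint into pieces. With joined regions in place of peaks Mdm2 stood seventh.

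Mdm4 was 28th of these 41 genes by span per peak, at 1430 nt. Cbx5, which encodes a heterochromatin protein, stood just before it at 1270 nt, and Lcp1, which encodes the actin bundler L-plastin, just after it at 1440 nt. By number of peaks it shared the third place with Luc7l2 and Mbnl1, at 22 each, behind Mecom with 36 and Snrnp70 with 25. It was 18th by median fold and 25th by strongest peak. In the list as a whole, 120 genes had a stronger peak than Mdm4. Mdm4 thus stood near the top of these genes by the number of its peaks and in the middle or below by their strength.

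**Figure D5:**
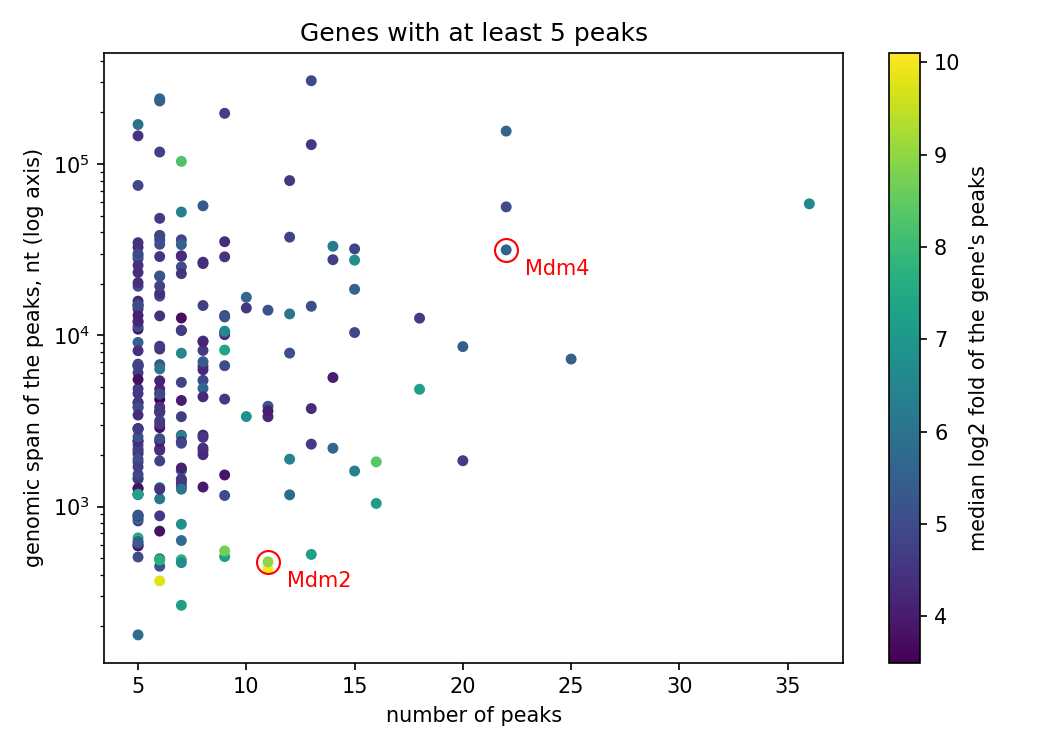
Genomic span of a gene's peaks in nt (vertical, log axis) against the number of its peaks (horizontal) for genes with at least 5 peaks, coloured by the median log2 fold. Mdm2 has 11 peaks over 475 nt and Mdm4 has 22 over 31518 nt, both ringed in red.

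Similar genes were sought among the 223 genes with at least 5 peaks, which include Mdm2 and Mdm4. The genes most alike in number of peaks, span, median fold and 3' UTR share were found by distance. It was taken over these 4 measures, each scaled to an SD of 1. For Mdm2 the nearest genes were Bin2 (distance 0.98), Ptpre (1.42), Dvl3 (1.60) and Actb (1.67). Ptpre encodes a receptor-type protein tyrosine phosphatase and Dvl3 a Wnt signal transducer. All 4 had every peak in the 3' UTR, with spans of 430 to 1823 nt and median log2 folds of 7.25 to 10.03. For Mdm4 they were Luc7l2 (0.86), Cdk6 (1.08), Slc18a2 (1.34) and Ogt (1.41). Luc7l2 encodes a splicing factor, Cdk6 a cell cycle kinase, Slc18a2 a vesicular monoamine transporter and Ogt the O-GlcNAc transferase. These 4 had 14 to 22 peaks over 8585 to 56207 nt, with median log2 folds of 4.86 to 6.19. Without the fold as a measure, 2 of the 4 genes nearest Mdm2 and 3 of the 4 nearest Mdm4 stayed the same. Without the 3' UTR share it was 3 for Mdm2 and 2 for Mdm4, and with the strongest peak in place of the median it was 3 and 4.

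Of 102 genes of the p53 pathway around Mdm2 and Mdm4, 40 had at least 1 peak, or 39.2%. Among all 21900 protein-coding genes it was 7.33%. The lists were chosen with earlier results of these data known, and their shares differed widely. It was 87.5% of 8 RNA-binding protein genes and 70.0% of 20 ribosomal and nucleolar protein genes. For 13 other ubiquitin ligases and their conjugating enzymes it was 46.2%, and for 3 p53 family genes 33.3%. The 28 p53 targets had 25.0%, and the 31 enzymes and partners 19.4%. The expression of these genes was not measured here, and its part in these shares was not tested. In 4 of the 40 genes the strongest peak reached a log2 fold of 6, where 13.7% of all genes with a peak did so. The highest of the 40 was 6.84, below every Mdm2 piece.

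Trp53, which encodes p53 itself, was the only one of 3 family members with a peak, a single exon peak at a log2 fold of 4.48 from 11 and 15 IP reads against 1 input read each. Of 31 enzymes and partners that act on the MDM2 or MDM4 protein, 6 had a peak. The strongest were Csnk1a1, a casein kinase that binds MDM4, at 5.18, and Usp15, a deubiquitinase of MDM2, at 5.10. Next came Yy1, a transcription factor that promotes the contact of MDM2 with p53, at 4.44. Ywhag, whose product binds phosphorylated MDM4, had 4.38, and the casein kinase Csnk1e had 4.31. None of these had more than 24 IP reads in its strongest peak. Ywhaz, of the same family as Ywhag, was the sixth, with 4.03 from 203 IP reads against 24 input reads in pair 1 and 239 against 23 in pair 2. Usp7, the main deubiquitinase of MDM2, Ppm1d, a p53-pathway phosphatase, and Cdkn2a, whose ARF product blocks MDM2, had no listed peak, which does not show that they were unbound.

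Among 13 other ubiquitin ligases of p53 and the conjugating enzymes grouped with them, 6 had a peak. Ube2d1, a conjugating enzyme that serves MDM2, was the strongest, at 6.20 from 38 and 47 IP reads. The ligase gene Huwe1 had 5.01, Ube2d3 4.55, the ligase gene Cop1 4.44 and Ube2d2a 4.31. Of 20 genes for ribosomal and nucleolar proteins that bind MDM2, 14 had a peak, with 68 peaks in all. These proteins bind and restrain MDM2 when ribosome assembly is disturbed. Rpl23 led at 6.84, followed by Rps25 at 6.35, the nucleophosmin gene Npm1 at 6.03, Rps20 at 5.88 and Rpl37 at 5.31.

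Of 28 p53 target genes, 7 had a peak. Cdkn1a, which encodes the cell cycle inhibitor p21, had 8 peaks, the strongest at 5.83 from 37 and 29 IP reads. Ccng1, which encodes cyclin G1, had 4.80, and Zmat3, which encodes an RNA-binding protein, 4.63. Trp53inp1, whose product is a p53 cofactor, had 4.59 and Rrm2b, a ribonucleotide reductase subunit gene, 4.41. Of 8 genes for RNA-binding proteins tied to Mdm2 or Mdm4, 7 had a peak. Their strongest were Hnrnpk at 5.91, the splicing factor gene Srsf1 at 5.61, Ssb, which encodes the La protein, at 5.49, Elavl1, which encodes HuR, at 5.38, and Zmat3, which is in both lists. Over all genes with a peak the median of the strongest log2 fold was 4.69. In the pathway lists it was 4.48 for the single p53 family gene, 4.41 for the enzymes and partners and 4.50 for the other ligases. It was 4.59 for the p53 targets, 5.12 for the ribosomal and nucleolar proteins and 5.38 for the RNA-binding proteins. In none of the 40 genes did any peak reach the level of the Mdm2 footprint, and 1 of them, Rpl23, had a peak stronger than the best of Mdm4.

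No peak of another gene lay within 100000 nt of the Mdm2 peaks, and 1 peak of Pik3c2b, a lipid kinase gene, lay within that distance of the Mdm4 peaks. None of the 33 peaks was listed under a second identifier. RefSeq names 1 pseudogene of Mdm4, Mdm4-ps, and the list holds 0 peaks under that name. The handling of reads with several possible places is not given in the sources consulted.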

How the data were processed

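The members and the gene lists were chosen with earlier results of these data known. The deposited table is 1 peak list of 4206 rows for all 4 libraries. In it 34 peaks stand under 2 gene identifiers and were counted once per gene. Per the file headers 1 column is a p and another a fold. As deposited, they were taken to be -log10 p and the log2 fold of IP over input, both the authors' own. Positions are in GRCm39, per the submitters' processing notes. Aligner, peak caller and filters are not named in the sources consulted.

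Read numbers were searched for in each peak so that 1 pair gave the listed p and both gave the listed fold. The p was a one-sided Fisher's exact test where a cell was below 5 and otherwise a chi-square test with Yates' correction. A match was a relative error in p of at most 2e-06, with input reads tried from 1 to 200. The search was tested on simulated data. The intervals of 95% are exact ones for the read numbers as given. Peaks that touch were joined into regions. The -log10 p is limited at 400, and a fold of 6 on the log2 scale is 64-fold.

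Every Mdm2 and Mdm4 peak is named. Of each pathway list the text names up to 5 of the strongest genes, and Trp53, Cdkn1a, Cdkn2a, Usp7 and Ppm1d in any case. Ywhaz, the sixth gene of its list, was added after its values were seen. Symbols were matched to the RefSeq table of GRCm38.p6, which gave no coordinates (1609 of 1626 matched). Python 3.11.15, NumPy 2.4.6, SciPy 1.17.1 and pandas 2.3.3 were used. No sequence is printed, since no genome of the list's build was used here.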

Additional observations from a re-analysis of the deposited data

How the results depend on the processing

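These values have no test, so only size and direction can change. Unjoined, the separate regions numbered 11 in Mdm2 and 22 in Mdm4. Joined across gaps of up to 50 nt Mdm2 had 1 region, and across 200 nt it had 1 and Mdm4 had 9. With 3' UTR peaks only, the Mdm4 span was 5369 nt and 26.15% of it was covered, and without the peak at each end the span was 17385 nt. At a log2 fold of 5 the number of Mdm4 peaks past it was 18, and at 7 it was 0. The median log2 fold of Mdm2 minus Mdm4 was 4.33 over joined regions, since each region then counts by its strongest piece. Over the other alternatives it was 3.12 to 3.80, and each library pair alone gave 3.44 and 3.52. Pathway genes with a peak above the list's median fold numbered 21, and those with at least 2 separate regions 26. Of the alternatives of these results, 17 stayed close to the main value and 13 moved, as given here, with none reversed. The alternatives with single library pairs, with 1 input read in both pairs and without the Mdm4 peak with the most input reads were chosen after seeing the data. No paired analysis was possible because these results come from no test into which a replicate block could be fitted. The values within each recovered pair are those of the single library pairs. Depth limits the folds most where the input is 1 read.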
